A study of Mus musculus with 9 samples.

Results

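The genes described here are 32 mouse genes of the germline and of meiosis, given as a fixed list of names, out of 21887 protein-coding genes in the RefSeq gene table. All 32 were found by symbol, and the rule that names them uses no measured value. The list was, however, chosen with earlier results of these data known. Each gene was read for peaks of open chromatin within 1000 bp of either end of its RefSeq span and for peaks inside the span. Open chromatin was mapped by ATAC-seq, which uses a transposase to cut and tag DNA that is not packed away, in dendritic cells cultured from the bone marrow of C57Bl/6 mice. All groups shared that strain, GM-CSF at 20 ng/mL over 9 days of culture, retroviral transduction on day 2, and a flow sort on the vector's human CD8 reporter together with CD11c. The groups were mi8, the control vector for overexpression, OE, which overexpresses Pcgf6, LMP8, the control vector for knockdown, and HP109, which carries a hairpin RNA against Pcgf6. Each vector had 2 libraries, and 1 further library was the input, which makes 9. The sources used here give neither the age and sex of the mice, nor the number of animals behind a culture, nor the level of Pcgf6 protein.

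In somatic cells most genes of this kind are kept off. The Polycomb complex PRC1.6 is built around PCGF6 and reaches germline promoters through the DNA-binding pairs MGA with MAX, which read the E-box CACGTG, and E2F6 with DP1, which read E2F sites. The complex marks histone H2A with ubiquitin and brings histone methylation and, at many of these promoters, DNA methylation along with it. Its loss in embryonic stem cells is known to release meiotic and germ cell genes. The name of the gene set comes from that background. RNA, PCGF6 binding and DNA methylation were not analysed here, so silencing itself was not measured, and closed means only that a list held no peak.

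The authors deposited 1 peak list for each vector, made from both of its libraries, so the lists have no replicate spread and no test between vectors was run. After removal of a few peaks outside the autosomes, X and Y, the lists held 170976 peaks for mi8, 111510 for OE, 140735 for LMP8 and 170103 for HP109. The median local background, recovered from the peak statistics, was 2.16 reads in mi8, 2.15 in OE, 1.58 in LMP8 and 1.56 in HP109. The background, which rises with the depth of a list, was thus close within each vector pair and lower in LMP8 and HP109 than in mi8 and OE. Read totals are not held in the lists. Of 10 dendritic cell markers, 10 had a gene-end peak in mi8, LMP8 and HP109 and 9 did in OE, where Ciita had none. Markers of other cells also had such peaks in some lists: 1 to 2 of 4 for T cells, 1 to 2 of 3 for B cells, 0 to 2 of 3 for erythroid cells and 1 to 3 of 3 for stroma and endothelium. Their part in the results was not tested. In bulk libraries, a site open in fewer cells and a site cut less often per cell cannot be told apart.

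The promoter sequences set the scene for the accessibility values. RefSeq promoters of the GRCm38.p6 assembly, which run from 250 bases before to 50 bases after a transcription start, were matched for 28 of the 32 genes. Tex11, Tex15, Majin and Piwil2 had no entry. Both strands were searched for the E-box CACGTG and for the E2F letters GCGGGA and TTCCCGC. The last 2 overlap, since the reverse complement of TTCCCGC contains GCGGGA. In the 3 promoters printed first, capitals mark CACGTG and GCGGGA on either strand. Hormad1 codes for a protein of the meiotic chromosome axis and Ddx4 for the germ cell RNA helicase Vasa. Both carry the E-box and an E2F match, and neither had a peak at its start in any list. Tdrkh, a tudor-domain partner of PIWI proteins, has neither motif in this window, and its start was open in all 4 lists. Other members showed the opposite pairings: Stag3 holds both motifs and was open in all 4 lists, while Asz1 holds neither and was open in none.

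Hormad1 (chr3:95559427-95559726, plus strand): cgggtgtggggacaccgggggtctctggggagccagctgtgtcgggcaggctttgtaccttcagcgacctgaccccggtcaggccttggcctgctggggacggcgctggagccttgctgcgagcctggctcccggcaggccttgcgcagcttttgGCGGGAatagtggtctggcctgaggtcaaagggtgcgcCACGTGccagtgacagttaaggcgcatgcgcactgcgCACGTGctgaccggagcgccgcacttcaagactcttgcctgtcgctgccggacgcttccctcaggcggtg
Ddx4 (chr13:112652261-112652560, minus strand): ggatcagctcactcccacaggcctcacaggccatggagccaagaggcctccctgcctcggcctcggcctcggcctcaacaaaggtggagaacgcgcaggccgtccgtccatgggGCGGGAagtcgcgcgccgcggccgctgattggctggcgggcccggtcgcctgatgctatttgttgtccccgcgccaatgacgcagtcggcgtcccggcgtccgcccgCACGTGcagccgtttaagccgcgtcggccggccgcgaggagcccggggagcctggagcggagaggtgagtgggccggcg
Tdrkh (chr3:94412994-94413293, plus strand): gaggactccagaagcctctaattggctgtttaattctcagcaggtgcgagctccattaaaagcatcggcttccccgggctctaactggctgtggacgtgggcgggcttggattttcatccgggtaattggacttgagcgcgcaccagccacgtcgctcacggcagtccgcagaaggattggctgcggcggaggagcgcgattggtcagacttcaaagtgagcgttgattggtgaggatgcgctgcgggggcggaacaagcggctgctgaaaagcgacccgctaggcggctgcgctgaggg

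Further E-boxes are shown with up to 15 bases on each side, because the E-box is the motif that MGA and MAX read and it recurs across these promoters. Capitals mark the E-box, and each stretch reads 5′ to 3′ on the strand of its gene.

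Sycp1 (chr3:102936174-102936209, minus strand): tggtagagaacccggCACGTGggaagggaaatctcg
Sycp3 (chr10:88459508-88459543, plus strand): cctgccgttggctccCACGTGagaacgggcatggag
Sycp3 (chr10:88459529-88459564, plus strand): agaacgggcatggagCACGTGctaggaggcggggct
Mael (chr1:166238947-166238982, minus strand): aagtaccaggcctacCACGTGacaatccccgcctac
Stk31 (chr6:49395469-49395504, plus strand): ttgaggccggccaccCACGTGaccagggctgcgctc
Tdrd1 (chr19:56826183-56826218, plus strand): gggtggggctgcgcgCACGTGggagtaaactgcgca
Mov10l1 (chr15:88982744-88982768, plus strand): ccttCACGTGctaaccgccaacctc
Taf7l (chrX:134476519-134476554, minus strand): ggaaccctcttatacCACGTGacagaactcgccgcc
Slc25a31 (chr3:40708763-40708798, plus strand): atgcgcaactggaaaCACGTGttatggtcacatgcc
Brdt (chr5:107331101-107331136, plus strand): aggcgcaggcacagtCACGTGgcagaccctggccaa

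The E-box was found for 13 of 28 genes (46.4%), against 1559 of 17492 genes with a promoter entry (8.91%). A gene with several listed starts was counted once, with a motif at any of them. Sycp1, Sycp3, Stag3 and Hormad1 build the meiotic chromosome axis and synapsis, Ddx4, Mael, Stk31, Tdrd1, Tdrd9 and Mov10l1 belong to the piRNA pathway, and Taf7l, Slc25a31 and Brdt are germ cell forms of general factors. Hormad1, Sycp3 and Tdrd9 each held 2 E-boxes. Most lay close to the start, at −57 and −20 in Hormad1, −64 and −43 in Sycp3, −29 in Ddx4 and −11 in Tdrd1, counted in bp from the transcription start to the first base of the motif. Those of Mael and Mov10l1 lay farthest out, at −223 and −246. GCGGGA was found for 13 genes (46.4%), against 28.4% of all genes, and TTCCCGC for 10 (35.7%), against 6.84%. Ddx4, Hormad1, Mael, Slc25a31, Stag3, Sycp1 and Sycp3 held both CACGTG and GCGGGA, which is 25% of the 28 genes and 3.57% of all. A match of letters is a description of the sequence and does not show that a factor was bound there.

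These promoters were also rich in CpG. Where a gene had several listed starts, its highest value was used. Median GC content was 60.5% and the median CpG observed over expected was 0.782, against 57.3% and 0.610 over all genes. Limits were set after these values were seen (GC over 50% and CpG observed over expected over 0.6). By these, 22 of 28 genes were CpG-rich at a listed start (78.6%), against 48.1% of all genes. Of 15 late spermatid and oocyte genes with an entry, such as protamines and zona pellucida genes, 0 were CpG-rich and 3 held an E-box.

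Open transcription starts were few. A peak within 1000 bp of a listed start was present for 5 of the 28 genes in mi8 (17.9%, all genes 63.8%), 5 in OE (17.9%, all genes 58.2%), 7 in LMP8 (25%, all genes 61.9%) and 6 in HP109 (21.4%, all genes 63.2%). The 5 genes with a start peak in all 4 lists were Dazl, Stag3, Tdrkh, Tex14 and Zcwpw1, which is 17.9% against 57.7% of all 17492 genes. Mov10l1 joined them in LMP8 and HP109, and Tdrd5 in LMP8. The other 21 genes (75.0%) had no start peak in any list, against 35.0% of all genes.

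CpG-rich starts were open far less often among members than over all genes. Of 8411 CpG-rich genes in the table, 87.0% had a start peak in all 4 lists and 7.12% had none. Of the 22 CpG-rich members, 5 (22.7%) were open in all 4 lists and 15 (68.2%) in none. Of the 6 members that were not CpG-rich, 0 were open in all 4 lists (all such genes 30.5%). No list held a start peak for any of these 6 (all such genes 60.9%). Among genes with an E-box, 76.5% of all such genes were open in all 4 lists, against 1 of 13 members (7.69%), Stag3. Members without an E-box were mostly closed too: 4 of 15 (26.7%) were open in all 4 lists, against 55.9% of all such genes. No list held a start peak for 10 of those 15 (66.7%) and for 11 of the 13 with an E-box (84.6%). Whether the E-box bears on the state of a start was not tested. For promoters that were both CpG-rich and held an E-box, the shares were 88.7% of 1103 genes and 1 of 11 members (9.09%). Members with no start peak had a median CpG observed over expected of 0.738, against 0.956 for the 5 open in all 4 lists. The value of 0.738 is close to the 0.791 of all open genes and far from the 0.197 of all closed genes. By this measure the closed members resembled the open promoters of the table.

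**Figure D1:**
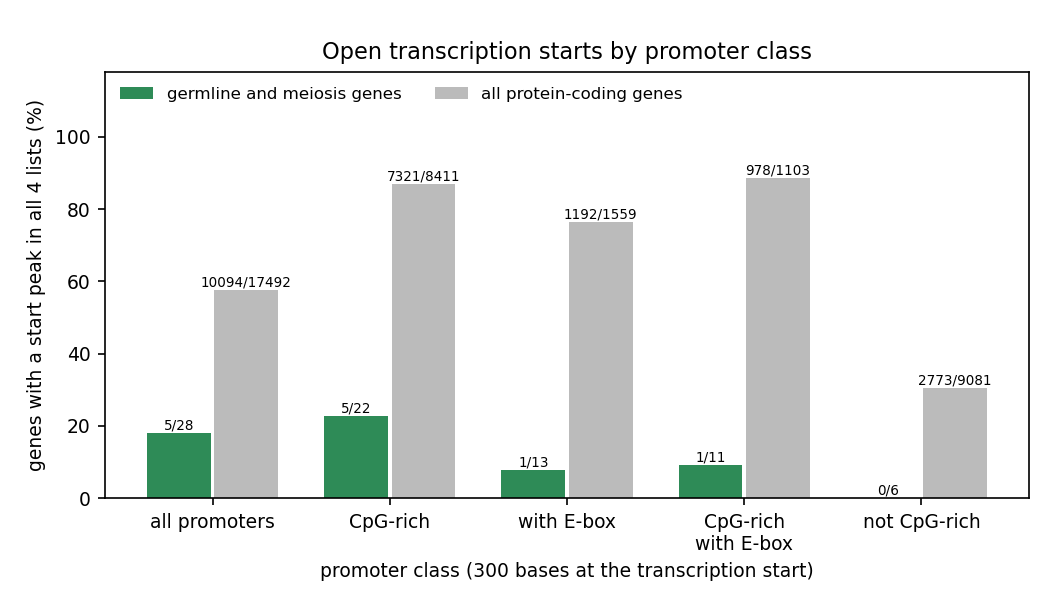
Share of genes with a start peak in all 4 lists (vertical axis, percent) for 5 classes of promoter (horizontal axis), in germline and meiosis genes (green) and all protein-coding genes (grey), with counts above the bars. In each class the green bar is lower, for example 5 of 22 against 7321 of 8411 genes with a CpG-rich promoter.

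**Figure D2:**
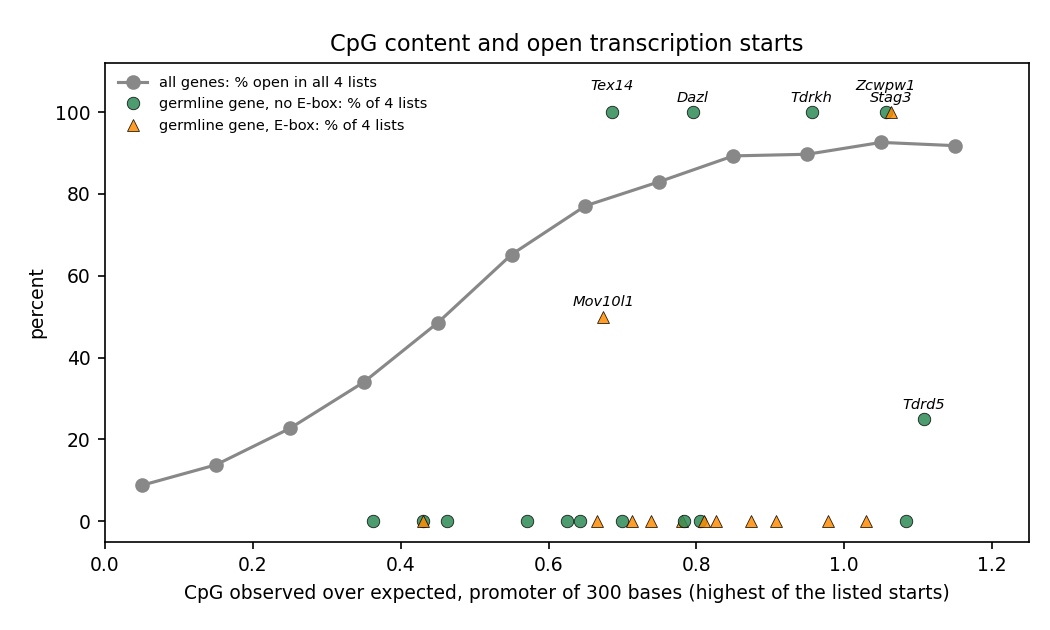
CpG observed over expected of the promoter (horizontal axis) against the percent of all genes open in all 4 lists, in bins of 0.1 (grey line), and against the percent of the 4 lists with a start peak for each of the 28 germline and meiosis genes (circles without, triangles with an E-box). The grey line reaches 92.6% between 1.0 and 1.1, while most members lie at 0 across the range.

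Few of the open starts had their strongest summit at the start itself. The strongest start peak had its summit between 250 bp upstream and 50 bp downstream for 66.8% of all genes with a start peak in mi8, 69.9% in OE, 66.1% in LMP8 and 67.3% in HP109. Among members this held for 1 of 5 in mi8, 1 of 5 in OE, 2 of 7 in LMP8 and 1 of 6 in HP109, namely Tdrkh, with Tdrd5 added in LMP8. The strongest summits at Dazl, Mov10l1, Stag3, Tex14 and Zcwpw1 lay farther away, as the plot of E-boxes and summits shows. Zcwpw1 had a further summit in HP109 inside the window, 92 bp upstream of its first start, with −log10 q of 63.6. In mi8, OE and LMP8 the strongest Zcwpw1 peak spanned that position, with its summit farther out. The Tex14 and Stag3 summits, and the strongest of Zcwpw1, lay nearer to an end of the neighbouring gene than to the listed start.

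**Figure D3:**
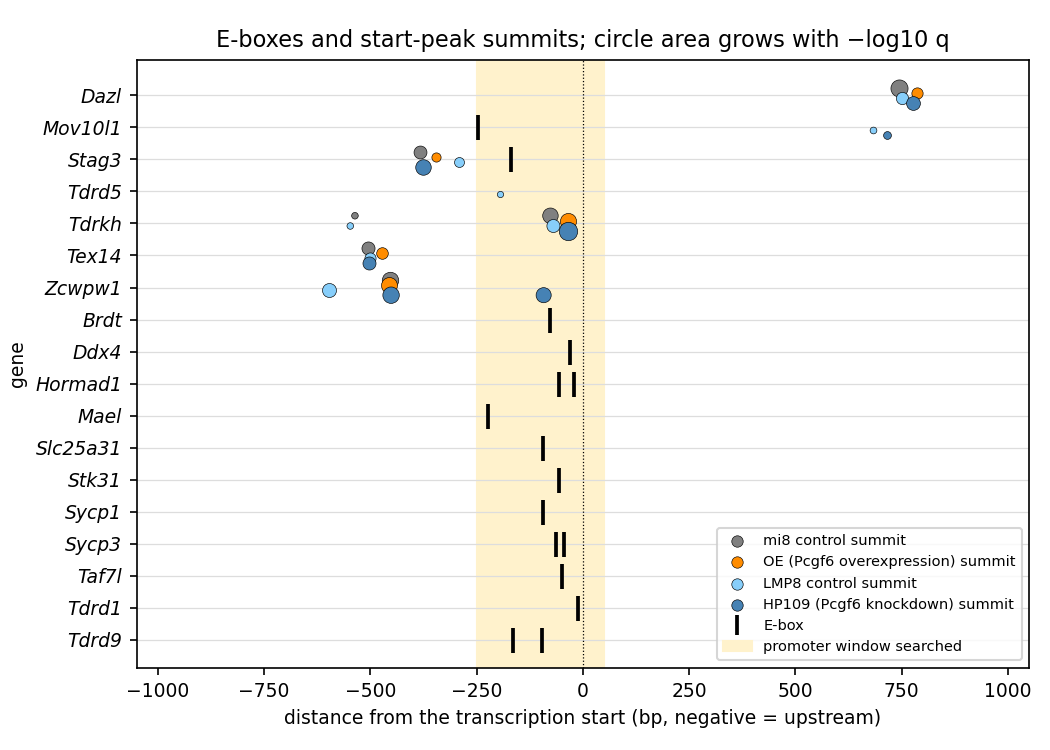
Positions of E-boxes (black bars) and of start-peak summits (circles, coloured by list, area rising with −log10 q) relative to the transcription start, in bp, with the promoter window that was searched shaded; for Zcwpw1 the first of 2 listed starts is used. Tdrkh is the only gene with a summit inside the shaded window in all 4 lists, and 11 of the 13 genes with an E-box have no circle.

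The gene ends gave the same picture on the full set of 32. A peak within 1000 bp of either end was present for 10 genes in mi8 (31.2%, all genes 64.8%), 8 in OE (25%, all genes 58.2%), 11 in LMP8 (34.4%, all genes 62.4%) and 10 in HP109 (31.2%, all genes 64.3%). Brdt, Dazl, Hormad1, Stra8, Tdrd1, Tdrkh, Tex14 and Zcwpw1 had an end peak in all 4 lists, which is 25% against 57.5% of all genes. Hormad1 and Tex14 were not counted when the summit had to lie nearer to the member's own end than to any other gene end. For 21 members (65.6%) no list held an end peak, against 33.6% of all genes. Among the 20 late spermatid and oocyte genes, 13 (65.0%) had none, a share close to that of the members. All 15 genes for PRC1.6 subunits, Pcgf6, Mga, Max and E2f6 included, had an end peak in every list. Among genes with an end peak, the median −log10 q was lower for members than for all genes in each list. It was 39.5 for members and 63.6 for all genes in mi8, 31.7 and 57.1 in OE, 15.4 and 40.2 in LMP8, and 43.7 and 67.5 in HP109. The counts rest on the window. With 500 bp, 6 members were counted in mi8 (all genes 60.7%), 5 in OE (54.3%), 6 in LMP8 (58.4%) and 6 in HP109 (60.0%). With 2500 bp there were 14 in mi8 (all genes 71.0%), 11 in OE (64.6%), 14 in LMP8 (68.7%) and 16 of 32 in HP109 (70.7%). At that width 14 members had no end peak in any list, and Piwil2 and Sycp2 had one in all 4. The shares of all genes in these 2 states were not computed.

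**Figure D4:**
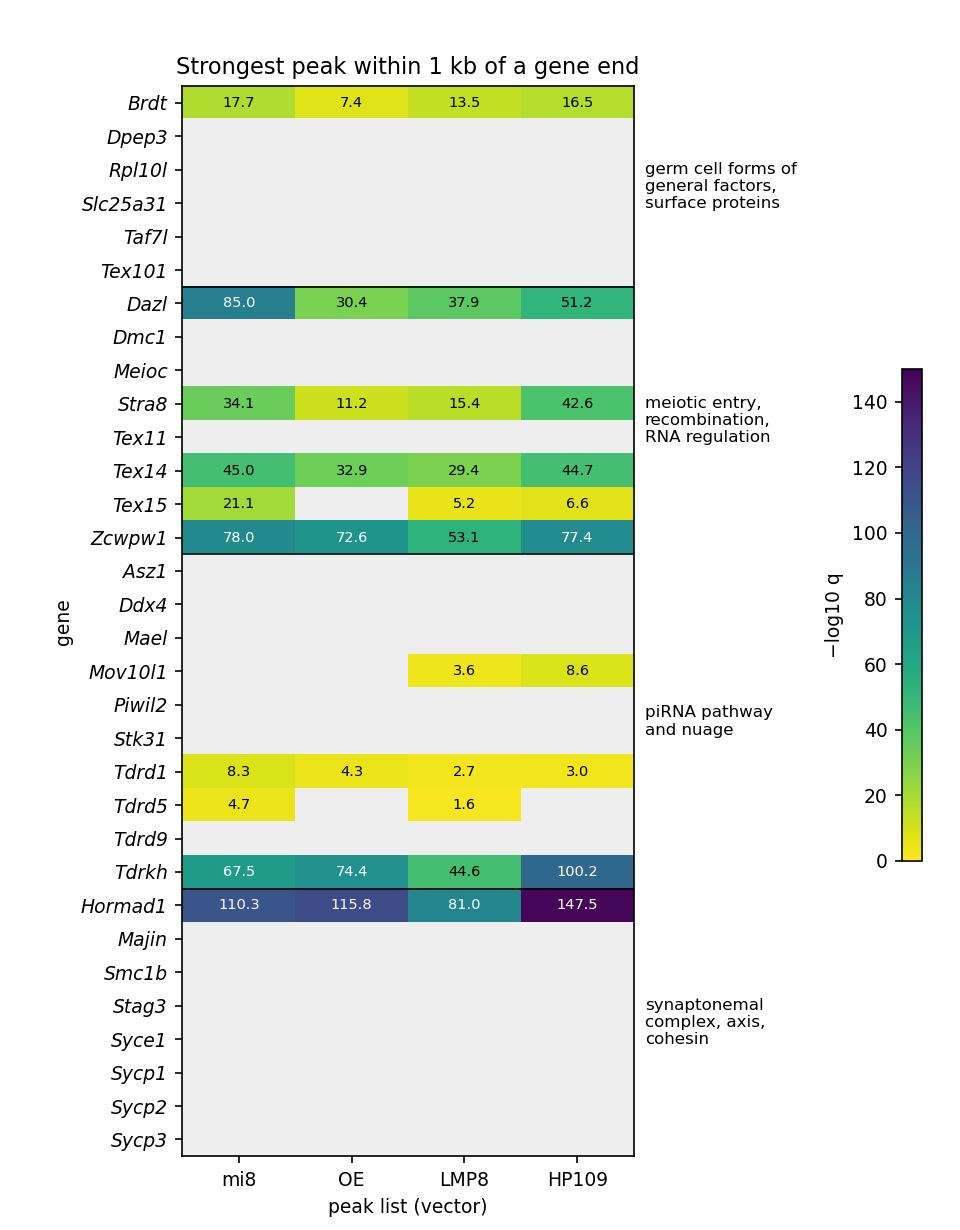
The −log10 q of the strongest peak within 1 kb of either gene end (colour and number) for the 32 genes (rows, grouped by role) in the 4 lists (columns), with grey for no peak. Hormad1 reads from 81.0 in LMP8 to 147.5 in HP109, and 21 rows are grey throughout.

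Of the 10 genes of the piRNA pathway and nuage, 3 had an end peak in mi8, 2 in OE, 4 in LMP8 and 3 in HP109. This pathway uses small RNAs bound to PIWI proteins to hold transposons in check in the male germline, and nuage is the granule where much of it takes place. Tdrkh (chromosome 3, 94413243 to 94434854, plus strand, mm10) had the strongest of these peaks. Its −log10 q was 67.5 in mi8, 74.4 in OE, 44.6 in LMP8 and 100.2 in HP109, with 70, 71, 48 and 80 reads at the summit and fold over background of 18.3, 21.4, 15.8 and 30.5. Fold and −log10 q are values of the authors' peak caller here and throughout. Since they move with the depth of a list, they are set side by side without reading a change from them. The summits lay 75, 34, 68 and 33 bp upstream of the gene, inside the promoter printed above, and 213 to 255 bp from the start of the long noncoding RNA 1700040D17Rik.

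The other peaks of this group were weak. Tdrd1, a tudor protein of the nuage, had a peak at its 3′ end in all 4 lists, with −log10 q of 8.30 in mi8, 4.29 in OE, 2.74 in LMP8 and 2.99 in HP109, from 18, 13, 9 and 9 reads. Its start, which holds an E-box, had none. Mov10l1, the helicase that processes piRNA precursors, had a peak near its start with −log10 q of 3.63 in LMP8 (9 reads) and 8.64 in HP109 (14 reads) and none in mi8 or OE. It was the single member with a peak at either end in LMP8 and at neither end in mi8 (3.12%, all genes 0.512%). The reverse held for 0 members (all genes 2.92%), so by this count the 2 control vectors differed by 1 gene. Tdrd5 had a 3′ end peak in mi8 (−log10 q 4.68, 16 reads) and a start peak in LMP8 (1.55, 11 reads), each missing from the partner list. The LMP8 value is the lowest that any gene-end peak of that list reached. The 2 control vectors thus also differed at each end of Tdrd5, which a count of either end does not show. At listed starts, Mov10l1 and Tdrd5 were open in LMP8 and not in mi8 (7.14%, all genes 0.406%). Ddx4, Mael, Stk31, Tdrd9, Asz1 and Piwil2 had no end peak in any list.

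Among the 8 genes of the synaptonemal complex, chromosome axis and meiotic cohesin, 1 had an end peak, and it had one in every list (12.5%, all genes 57.5%). These proteins build the scaffold that holds homologous chromosomes together in meiotic prophase. The gene was Hormad1 (chromosome 3, 95559677 to 95587863, plus strand), and the peak lay at its 3′ end. Its −log10 q was 110.3 in mi8, 115.8 in OE, 81.0 in LMP8 and 147.5 in HP109, from 90, 94, 67 and 103 reads, the strongest end peak of the set in each list. The summits lay 961 to 1035 bp beyond the gene and 7 to 42 bp from the starts of Gm40097 and Golph3l, a gene for a Golgi protein. The start of Hormad1, with its pair of E-boxes, was closed in all 4 lists. Sycp1, Sycp2, Sycp3, Syce1, Smc1b, Majin and Stag3 had no end peak.

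Stag3, a meiosis-specific cohesin subunit on chromosome 5, differed between its span and its listed start. The RefSeq start lies 7995 bp inside the gene span, and a peak there was present in all 4 lists. Its −log10 q was 43.5 in mi8, 16.5 in OE, 21.1 in LMP8 and 67.8 in HP109. The summits lay 383, 345, 292 and 377 bp upstream of that start, and 100, 138, 191 and 106 bp from the end of the span of Gpc2, in mi8, OE, LMP8 and HP109. It was the single E-box gene of the set with a start peak in all 4 lists.

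Of the 8 genes of meiotic entry, recombination and germ cell RNA regulation, 5 had an end peak in mi8, 4 in OE, 5 in LMP8 and 5 in HP109. Dazl (chromosome 17, 50279393 to 50293620, minus strand) codes for an RNA-binding protein required for germ cell development. Its peak had a −log10 q of 85.0 in mi8, 30.4 in OE, 37.9 in LMP8 and 51.2 in HP109, from 74, 41, 38 and 48 reads. Fold over background was 25.4, 10.8, 16.1 and 19.1. The OE value was the lowest of the 4 and the mi8 value the highest, and the summits lay 744 to 787 bp inside the gene, downstream of the promoter window. No other gene end or start lay within 30 kb of the summits, which sets Dazl apart from the other open starts. With windows of 500 bp Dazl was open in mi8 and not in OE.

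Zcwpw1 and Tex14 had the summits of their strongest peaks upstream of their starts, on the side of another gene. Zcwpw1 codes for a histone mark reader active in meiotic recombination, and Tex14 for a protein of the bridges between germ cells. At Zcwpw1 (chromosome 5, 137787157 to 137822621, plus strand) the −log10 q was 78.04, 72.6, 53.1 and 77.4 in mi8, OE, LMP8 and HP109. These summits lay 277 to 422 bp before the span and 34 to 179 bp from an end of Mepce. HP109 listed a separate peak there, with its summit 92 bp upstream of the first listed start. In mi8, OE and LMP8 the strongest peak itself spanned that position and the listed starts. HP109 thus differed in how the stretch was divided into peaks. At the 3′ end of Zcwpw1 another peak had 25.8, 8.04, 15.9 and 20.2 in the same order, so both ends were open in every list. At Tex14 (chromosome 11, 87405013 to 87555823, plus strand) it was 45.0, 32.9, 29.4 and 44.7, with summits 420 to 454 bp before the span and 53 to 87 bp from the start of Rad51c, a DNA repair gene. Another protein-coding gene ended within 1000 bp of 5 members (15.6%, all genes 24.8%). Of these, 2 had an end peak in all 4 lists (40.0%, all such genes 81.1%), against 6 of the 27 without such a neighbour (22.2%, all such genes 49.7%).

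Stra8, the retinoic acid target that starts meiosis, had its peak at the 3′ end, 521 to 576 bp inside the gene. The −log10 q was 34.1 in mi8, 11.2 in OE, 15.4 in LMP8 and 42.6 in HP109, from 44, 29, 26 and 46 reads. OE was the lowest and HP109 the highest of the 4, with the controls between them. Most shared ends of all genes had the same order within each pair. OE was below mi8 at 74.6% of them and HP109 above LMP8 at 93.6%. Tex15, on chromosome 8, which acts in transposon silencing and recombination of the male germline, had a peak 637 to 726 bp inside its lower end. Its −log10 q was 21.1 in mi8 (28 reads), 5.24 in LMP8 (13 reads) and 6.63 in HP109 (12 reads), and OE had none. Dmc1, the meiotic recombinase, Meioc and Tex11 had no end peak.

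Of the 6 germ cell forms of general factors and surface proteins, Brdt alone had an end peak, in all 4 lists (16.7%, all genes 57.5%). Brdt is the testis member of the BET bromodomain family. The peak lay 907 to 982 bp beyond its 3′ end, with −log10 q of 17.7 in mi8, 7.38 in OE, 13.5 in LMP8 and 16.5 in HP109, from 26, 18, 22 and 21 reads. Its E-box promoter was closed. Taf7l, a germ cell variant of a TFIID subunit, Rpl10l, a ribosomal protein used in spermatocytes, Slc25a31, the testis ADP/ATP carrier, and the surface proteins Tex101 and Dpep3 had no end peak in any list.

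Few gene ends differed in state between a Pcgf6 vector and its control. Overexpression set against mi8 left 2 members open at an end in mi8 but not in OE, Tdrd5 and Tex15 (6.25%, all genes 6.77%). There were 0 with the reverse (all genes 0.192%). Knockdown set against LMP8 left 0 members open at an end in HP109 but not in LMP8 (all genes 2.69%) and 1 with the reverse, Tdrd5 (3.12%, all genes 0.740%). With 32 genes, 1 gene is 3.12%, so these counts of 0 to 2 genes cannot be told apart from the shares of all genes. With windows of 2500 bp, 3 members were open in HP109 but not in LMP8 (all genes 2.67%), namely Ddx4, Majin and Slc25a31, and 1 the reverse, Tdrd5 (all genes 0.694%). The direction between HP109 and LMP8 thus turned with the window.

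Peak values at shared ends were read beside those of all genes. Where both lists had a peak at the same member end, OE had the lower −log10 q at 7 of 9 ends (77.8%), against 74.6% of 14901 ends of all genes. HP109 had the higher value at 11 of 11 ends, against 93.6% of 16162. The 2 control vectors also differed, with LMP8 lower than mi8 at 10 of 10 ends, against 15428 of 16234. In all 3 pairings most ends of the members lay on the same side as most ends of all genes.

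Peaks inside the spans, beyond the windows at the ends, numbered 81 in mi8, 54 in OE, 73 in LMP8 and 90 in HP109. With each list held to its 111510 strongest peaks they numbered 51, 54, 55 and 52, so the order of the lists did not hold. Per 100 kb of the full lists this came to 5.17, 3.45, 4.66 and 5.75, below the 8.32, 5.28, 6.75 and 8.41 of all genes. At least 1 such peak was present in 19 members in mi8 (59.4%, all genes 56.3%), 16 in OE (against 48.4% of all genes), 18 in LMP8 (56.2%, all genes 52.9%) and 19 in HP109 (59.4%, all genes 56.6%), so the share of genes with an inside peak was near the background. Of the 21 members with no end peak, 12 had an inside peak in at least 1 list. The other 9, Asz1, Dpep3, Meioc, Rpl10l, Syce1, Sycp1, Sycp3, Taf7l and Tex101, had no peak at either end or inside in any list. Whether an inside peak falls in an exon or an intron is not given here, since the gene table used holds no exons.

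Tex14 held the most inside peaks, 25 in mi8, 20 in OE, 23 in LMP8 and 24 in HP109. Its span contains 7 small RNA genes, which RefSeq labels as small nuclear RNA. The 2 strongest in each list lay in regions, merged over the 4 lists, that cover Rnu1a1 and Rnu3b1. The region at Rnu1a1, a gene for the U1 splicing RNA, had −log10 q of 74.8, 72.3, 50.02 and 94.3 in mi8, OE, LMP8 and HP109. Its HP109 summit lay 4 bp from an end of Rnu1a1. The region at Rnu3b1, a gene for the U3 RNA of ribosome assembly, had 66.9, 79.5, 48.0 and 105.4, with the HP109 summit 6 bp from an end of Rnu3b1. Summit distances in mi8, OE and LMP8 are not given here. Of its 23 merged regions, 15 were present in all 4 lists and 12 lay within 1000 bp of an end of another gene. The U1 and U3 genes have near-identical copies, and the sources used here do not say how reads that match several copies were treated, so these values are uncertain. Without Tex14 the members held 56, 34, 50 and 66 inside peaks, or 3.95, 2.40, 3.53 and 4.66 per 100 kb.

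**Figure D5:**
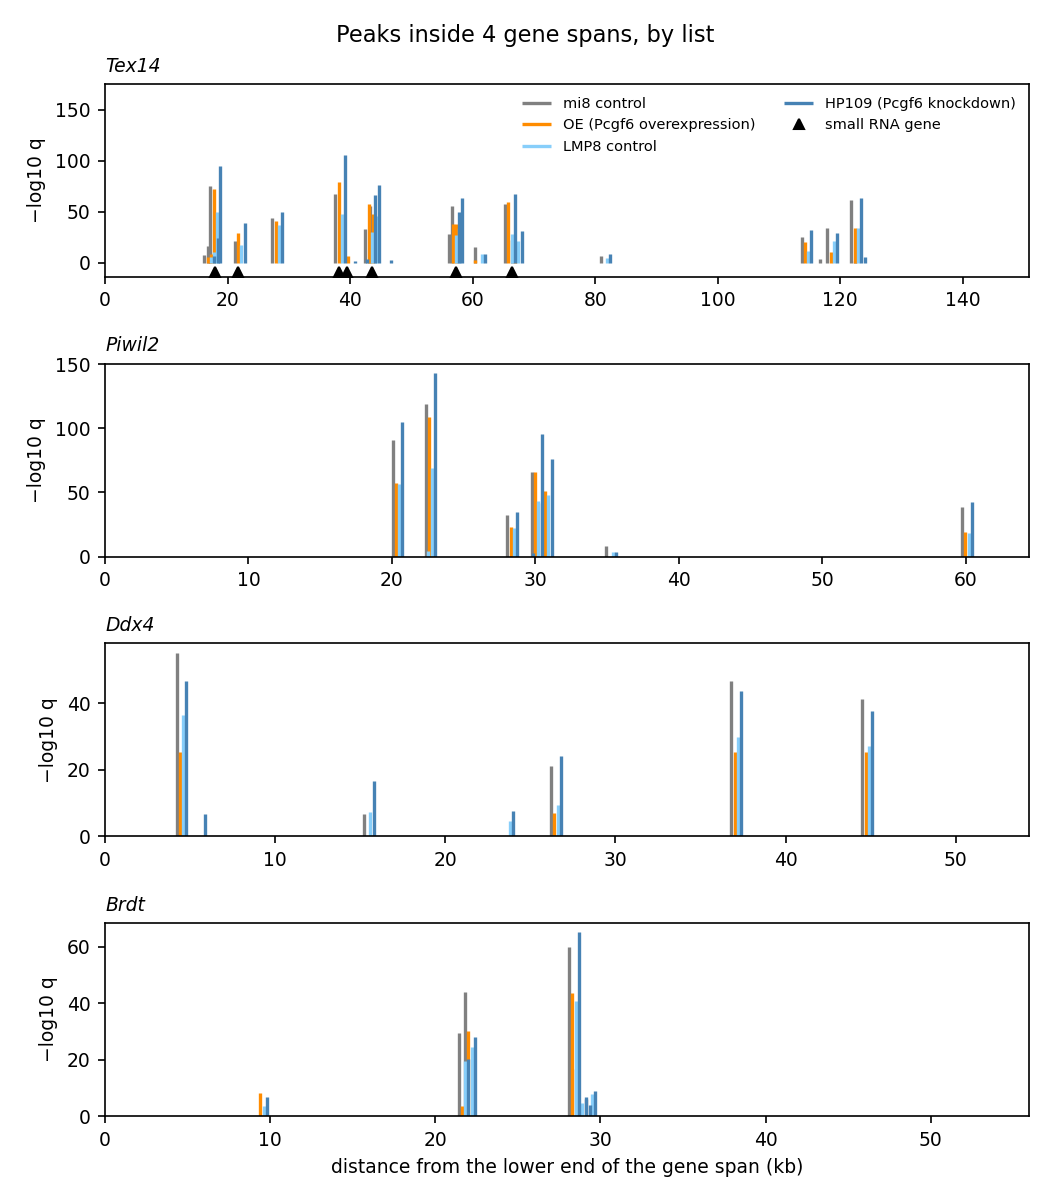
The −log10 q of peaks (vertical axis) against distance from the lower end of the gene span in kb (horizontal axis) inside Tex14, Piwil2, Ddx4 and Brdt, with bars of the 4 lists set side by side at each site and small RNA genes of the Tex14 span as triangles. Each site is placed at the summit of its strongest list. The tallest Tex14 bars stand at small RNA genes, and the tallest bar of the plot is 143.2, in Piwil2 in HP109.

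Piwil2, Ddx4 and Brdt had strong inside peaks far from their ends. Piwil2, the PIWI protein also called MILI, had 9 merged regions on chromosome 14, 6 of them in all 4 lists. The strongest, 22.7 kb from the lower end, had −log10 q of 119.1 in mi8, 109.1 in OE, 69.2 in LMP8 and 143.2 in HP109. Another, at 20.4 kb, had 91.2, 57.1, 56.7 and 105.1. These values lay above the median end peak of all genes in the same list. The exception was 57.1 in OE at 20.4 kb, which was level with that median. No other gene end lay within 26 kb of these regions. Ddx4 had 7 regions, 4 of them in all lists, the strongest 4.5 kb from the lower end, which is its 3′ end, with 55.1, 25.2, 36.5 and 46.5. Brdt had 7 regions, with 59.8, 43.7, 40.6 and 65.1 at 28.4 kb. Ddx4 and Brdt thus had no start peak and Piwil2 no peak within 1000 bp of an end, while peaks stood in the body of all 3. With windows of 2500 bp Piwil2 had an end peak in all 4 lists.

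The inside peaks of the remaining genes were fewer and mostly weaker. Tdrd5 had 5 regions, 4 of them in all lists, with −log10 q of 41.2, 31.4, 28.3 and 45.0 at 8.8 kb. Mael, an RNA-binding protein of the nuage, had 29.5, 5.37, 13.5 and 29.8 at 3.0 kb. Stra8 had 36.5, 32.1, 16.7 and 41.4 at 2.0 kb from its lower end. Tex11, an X-linked gene needed for crossing over, had 13.9, 24.0, 5.64 and 14.2 at 81.0 kb, where OE was the highest of the 4. The 6 regions of Smc1b, a meiotic cohesin subunit, all lay where its span overlaps Fam118a, and 5 of them were in mi8 and not in OE.

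Inside peaks that lacked a partner within a vector pair were read beside those of all genes. In mi8, 29 of 81 had no overlapping peak in OE (35.8%, all genes 42.2%), and in OE 6 of 54 had none in mi8 (11.1%, all genes 5.14%). In HP109, 23 of 90 had no overlapping peak in LMP8 (25.6%, all genes 26.7%), and in LMP8 3 of 73 had none in HP109 (4.11%, all genes 8.26%). The shares from the larger sets, mi8 and HP109, were near those of all genes, while the other 2 rest on 6 and 3 peaks. The inside peaks merged into 100 regions, 43 of them found in every list, against 43.6% of 99337 regions inside all genes. There were 7 in mi8 alone (all genes 9.94%), 2 in OE alone (1.52%), 2 in LMP8 alone (2.57%) and 15 in HP109 alone (9.83%). Those in HP109 alone included 3 in Stag3, with −log10 q of 6.63, 8.79 and 1.74 at 9.9, 19.8 and 28.9 kb. Regions in mi8 and HP109 only, the 2 longest lists, numbered 5 (all genes 8.38%), and those in OE and LMP8 only numbered 0 (all genes 0.182%).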

How the data were processed

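Peaks came from 4 narrowPeak lists that the authors deposited, 1 per vector, each called from both libraries against the single input. BWA, Picard and MACS2 on build mm10 are named in the submitters' processing notes. The sources used here give no versions, thresholds or read shifting, and do not say how libraries were pooled or downsampled. In the files, the deposited score is 10 times the −log10 q as a whole number. The deposited fold is the ratio of summit pileup to local background, and the deposited −log10 p and −log10 q are the authors' significance values. No column of the lists went unmatched.

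Peaks outside chromosomes 1 to 19, X and Y were dropped. Where several peaks overlapped an end window, the one with the highest −log10 q gave the values. Summit pileup and background were recovered from fold and −log10 p, taken as a Poisson tail, within 0.001 for 100% of peaks. An end peak overlaps the 1000 bp on either side of a span end, and a start peak those of a RefSeq start. Lists were compared by an overlap of at least 1 bp, and all protein-coding genes of the table gave the background. The search for end peaks was tested on simulated lists. Scripts used Python 3.11.15, pandas 2.3.3, numpy 2.4.6, scipy 1.17.1 and matplotlib 3.10.9.

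Members and gene lists were chosen with earlier results of these data known. Every member is accounted for, and values in every list are given for each member with an end peak. Promoters to be printed were those of the strongest end peak in all 4 lists (Hormad1), of the strongest that differed within a pair (Tex15, no entry) and of E-box genes, some of whose sequences are not reported here. The choice of Ddx4 and Tdrkh for printing in full, of the inside peaks named and of the CpG limits was made after their values were seen. Alternatives were other windows, a stricter q, equal list lengths, summit position and starts alone.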

Additional observations from a re-analysis of the deposited data

How the results depend on the processing

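No paired analysis was possible because each vector has 1 list made from both of its libraries, and for the same reason no library could be left out. Over 16 counts and shares, 83 alternatives were computed: 58 stayed within 1.5 times the value reported and 25 moved further. With windows of 500 bp, end peaks were counted for 6 members in mi8, 5 in OE, 6 in LMP8 and 6 in HP109, 5 in all 4 lists, 1 in mi8 and not OE (Dazl), and 0 in LMP8 and not HP109. With 2500 bp, HP109 had 16, and 3 were in HP109 and not LMP8 against 1 the reverse. At −log10 q of at least 5, 1 member was in HP109 and not LMP8 (Mov10l1) and 0 the reverse. Both settings thus turned the direction between HP109 and LMP8, which was 0 against 1 and rests on few genes. With each list held to its 111510 strongest peaks, LMP8 had 7, 1 member was in mi8 and not OE (Tex15), 1 in OE and not mi8 (Tdrd1) and 0 in LMP8 and not HP109, and inside peaks numbered 51 in mi8 and 52 in HP109, below the 54 of OE and 55 of LMP8, which turned the direction within both pairs. With the summit required inside the window, 2 were in LMP8 and not HP109 (Hormad1 and Tdrd5). A setting added after seeing the data kept only summits nearer to the member's own end than to any other gene end. It left 8 members in mi8, 6 in OE, 9 in LMP8 and 8 in HP109, with 6 in all 4 lists. The share over all genes was not computed for this setting, nor for the stricter q, the equal list lengths or the summit inside the window. At 500 bp it was computed only for the count in each list. At starts alone the counts were 5, 5, 7 and 6 in mi8, OE, LMP8 and HP109, 5 in all lists and 0 in mi8 and not OE. Without Tex14, a setting added after seeing the data, OE had 34 inside peaks. Stricter CpG limits, also added later (GC over 55%, CpG observed over expected over 0.75), left 12 members, of which 25% were open in all lists and 66.7% in none. The cause of these moves was not tested, apart from the smaller or larger window or list that each setting sets. Depth limits the weakest peaks: those of Tdrd1 in LMP8 and HP109 rest on 9 reads each.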

Other observations

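Late germ cell genes outside the set gave a second view of closed chromatin. Of 20 genes of late spermatids and oocytes, end peaks were present for 6 in mi8, 5 in OE, 5 in LMP8 and 7 in HP109. Oosp1, an oocyte secreted protein, had one in mi8 (−log10 q 6.76) and not in OE, and one in HP109 (8.86) and not in LMP8. Zp2, a protein of the egg coat, had one in HP109 (7.62) and not in LMP8. Among 16 ubiquitously used genes, end peaks were present for 16 in mi8, 15 in OE, 15 in LMP8 and 16 in HP109. Ywhaz, a 14-3-3 protein, accounted for the difference, with −log10 q of 3.69 in mi8 and 4.19 in HP109.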
